A study of Homo sapiens with 72 samples.

Results

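Trimethylation of histone H3 at lysine 4 (H3K4me3) was compared between 2 untreated human B cell lines, Raji and NALM6. The comparison used 6 of the 54 libraries with peak files, 3 of Raji and 3 of NALM6, out of 72 samples in the series. Raji is a Burkitt's lymphoma line and NALM6 an acute lymphocytic leukemia line, both grown in RPMI medium, and the labels of all 6 samples give no treatment. The rest of the series profiled the same lines and a further leukemia line, REH, for this mark and for H3K4me2 and H3K27me3, with or without 1 nM bryostatin overnight. Each disease is represented by 1 established line, so a difference between the groups is a difference between these lines. The labels do not say whether replicates came from separate cultures, so p-values measure only the spread between these libraries.

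The assay was Cut&Tag, in which an antibody guides a transposase to the mark and the DNA around it is amplified and sequenced. H3K4me3 sits at the start sites of genes that are transcribed or ready to be transcribed, and it extends furthest over the genes that define a cell type. B cells begin as precursors that express the surrogate light chain (VPREB1 and IGLL1) and the recombination machinery (RAG1, RAG2 and DNTT). Mature cells carry CD20 and CD21, and germinal centre cells, the counterpart of Burkitt's lymphoma, depend on BCL6. NALM6 has the features of a precursor B cell. Raji carries the Epstein-Barr virus (EBV).

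Promoters from both ends of this axis, and of a pair of genes shared by the lines, show the sequence under the peaks described next. The windows are the 200 bases before the RefSeq start (GRCh38.p14), written 5′ to 3′ on the strand of the gene. Capitals mark matches, on either strand, to any of 5 motifs searched, namely the octamer ATGCAAAT, the E-box CAGGTG bound by E2A, GAGGAA of ETS factors and PU.1, TATAAA and CCAAT. No capitals of different motifs overlap in these windows.
Peaks lay over the first 2 windows in 3 of 3 Raji libraries and 0 of 3 NALM6 libraries.
CR2 promoter, chr1:207454128-207454327, plus strand: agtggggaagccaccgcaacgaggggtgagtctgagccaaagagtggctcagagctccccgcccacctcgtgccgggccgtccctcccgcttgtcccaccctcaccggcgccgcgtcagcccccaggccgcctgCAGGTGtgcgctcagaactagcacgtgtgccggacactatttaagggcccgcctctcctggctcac
CD80 promoter, chr3:119559615-119559814, minus strand: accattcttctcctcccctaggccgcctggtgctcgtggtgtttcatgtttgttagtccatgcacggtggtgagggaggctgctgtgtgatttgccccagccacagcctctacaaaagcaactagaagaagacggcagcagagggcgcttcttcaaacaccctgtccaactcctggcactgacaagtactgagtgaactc
Over the next 3 windows peaks lay in 0 of 3 Raji libraries and 3 of 3 NALM6 libraries.
VPREB1 promoter, chr22:22244586-22244785, plus strand: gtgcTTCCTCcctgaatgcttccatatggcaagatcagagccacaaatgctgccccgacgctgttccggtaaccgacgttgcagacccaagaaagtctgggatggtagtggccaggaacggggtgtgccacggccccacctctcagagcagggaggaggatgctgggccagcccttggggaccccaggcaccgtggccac
IGLL1 promoter, chr22:23580291-23580490, minus strand: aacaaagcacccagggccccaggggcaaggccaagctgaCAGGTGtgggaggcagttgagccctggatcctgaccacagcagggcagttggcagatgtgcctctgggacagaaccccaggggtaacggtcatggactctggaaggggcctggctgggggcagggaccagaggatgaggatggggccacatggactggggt
DNTT promoter, chr10:96304234-96304433, plus strand: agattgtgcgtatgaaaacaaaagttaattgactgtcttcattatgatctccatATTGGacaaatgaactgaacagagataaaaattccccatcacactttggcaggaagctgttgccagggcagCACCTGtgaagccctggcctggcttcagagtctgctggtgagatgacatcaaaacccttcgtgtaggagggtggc
The PAX5 window was covered in all 6 libraries, and the CD22 window in 3 Raji and 2 NALM6 libraries.
PAX5 promoter, chr9:37034269-37034468, minus strand: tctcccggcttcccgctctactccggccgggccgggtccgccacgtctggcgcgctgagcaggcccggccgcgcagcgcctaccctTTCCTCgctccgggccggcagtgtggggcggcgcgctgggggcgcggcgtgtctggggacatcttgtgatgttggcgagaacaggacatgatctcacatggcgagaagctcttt
CD22 promoter, chr19:35328987-35329186, plus strand: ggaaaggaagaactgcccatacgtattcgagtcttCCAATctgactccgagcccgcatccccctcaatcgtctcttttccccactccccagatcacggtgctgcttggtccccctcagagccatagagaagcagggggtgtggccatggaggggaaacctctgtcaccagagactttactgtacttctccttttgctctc
The E-box letters, found here at CR2, IGLL1 and DNTT, occur in 13.5% of the 15315 promoter windows of this length. GAGGAA, found at VPREB1 and PAX5, occurs in 19.0%, and CCAAT, found at DNTT and CD22, in 30.7%. No window shown held the octamer or TATAAA, which occur in 1.30% and 7.58% of all windows. The matches describe letters in these windows and do not mark a bound site.

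A peak is a stretch of coverage that the authors' peak caller, SEACR, called in a single library. The Raji libraries held 12798, 10296 and 9962 peaks on human chromosomes, from 47.9, 20.1 and 21.0 M mapped reads. NALM6 replicates 2 and 3 held 9711 and 10679 peaks from 18.3 and 19.5 M reads. NALM6 replicate 1 stood apart. It held 6100 peaks with a median length of 916.5 bp, against 1690 to 2630 bp in the other 5 libraries, and its signal was deposited on another scale that is not stated, so it was used for the presence of peaks only. A peak lay within 1 kb of a start of 54.2%, 52.9% and 52.1% of the 20033 protein-coding genes in Raji, and of 32.4%, 51.4% and 53.8% in NALM6. The mean of 53.1% ± 1.07 (SD, n = 3) in Raji was 7.19 percentage points above the 45.9% ± 11.7 (SD, n = 3) in NALM6, a difference within the spread of the libraries (exact two-sided permutation test, p = 0.4, the smallest possible being 0.1). Without NALM6 replicate 1 the difference was 0.46 percentage points (exact permutation test, p = 0.8), and with equal numbers of peaks in each library 1.44 percentage points (exact permutation test, p = 0.1).

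Signal was compared over regions made by merging overlapping peaks. A region's relative signal in a library is its summed coverage divided by that of the median region, so that a value of 1 is the median region of that library. Of 13085 merged regions, 8556 were called in all 5 libraries that share a scale, and 8072 of these lay within 1 kb of a protein-coding start. The fit (limma, eBayes with trend, Benjamini-Hochberg adjusted p under 0.05) called 3861 regions, which is 45.1%, with 1872 (21.9%) higher in Raji and 1989 (23.2%) higher in NALM6. Without centring the libraries on their medians, 878 regions were called, 231 higher in Raji and 647 in NALM6, and the median of all regions shifted to -0.27 on the log2 scale. The median region had a summed coverage of 672557 in Raji replicate 1, against 1130250 to 1214975 in the other libraries of the fit. Counts without centring given below carry this difference of 1 library. The values of the 2 lines did not overlap in 67.0% of tested regions. Most differences were small, with a median absolute log2 difference of 0.33. Differences over 1 on the log2 scale were called in 1147 regions, 508 of them higher in Raji and 639 in NALM6, and over 3 in 71 regions, 15 in Raji and 56 in NALM6. Replicates of a line differed with an SD of 0.16 to 0.35 on the log2 scale, and libraries of different lines with an SD of 0.75 to 0.85. Within Raji, the SD was 0.352 and 0.347 for the pairs with replicate 1 and 0.160 for replicates 2 and 3.

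**Figure D1:**
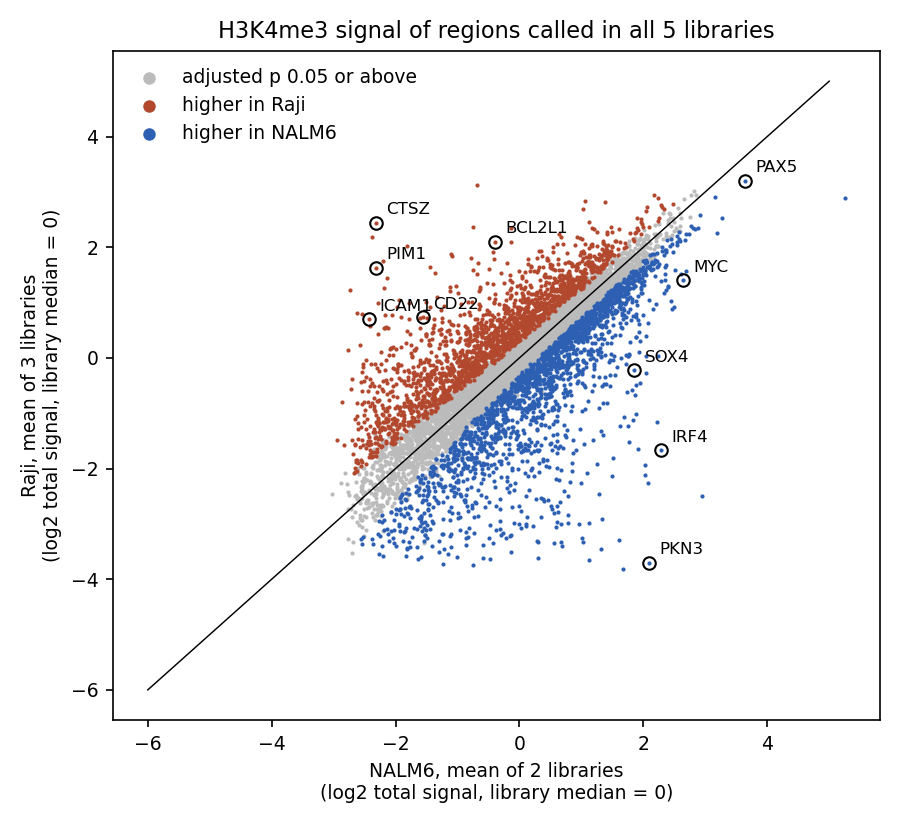
Each point is a region called in all 5 libraries. The horizontal axis is the mean log2 total H3K4me3 signal of the NALM6 libraries and the vertical axis that of the Raji libraries, with the median region of a library at 0. Coloured points passed an adjusted p of 0.05, and the 15 regions higher in Raji and 56 higher in NALM6 by over 3 lie furthest from the diagonal.

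Total signal grows with both the length and the height of a region. Over the 1147 regions with a called difference over 1, the median absolute log2 difference in total signal was 1.42, of which called length made up a median of 0.42 and mean signal per base 1.06. With the mean signal, 1131 of them kept the sign and 945 passed the test, and with the maximum signal 1144 kept the sign and 896 passed.

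Presence divided the genes more sharply. Of 20033 protein-coding genes, 6136 had a peak at a start in all 6 libraries and 8374 in none. A peak in 3 of 3 Raji libraries and 0 of 3 NALM6 libraries was found at 578 genes (2.89%), and the reverse at 297 genes (1.48%). The rule is stricter for NALM6, because a gene must also be called in its replicate 1. With NALM6 replicates 2 and 3 alone, 617 genes were called in NALM6 only and 579 in Raji only. With the strongest 6100 peaks of each library, the numbers were 541 and 577. The absence of a peak is not the absence of the mark. For 565 of the 577 Raji-only genes outside chromosome Y, the merged region around the start also held no signal in NALM6, and for 296 of the 297 NALM6-only genes it held none in Raji.

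The precursor B cell genes lay on the NALM6 side for the light chain surrogate and terminal transferase. Of 14 genes listed, 4 were called in NALM6 only and 0 in Raji only, against 1.48% and 2.89% of all starts. Another 3 were called in all libraries. IGLL1, which encodes the lambda5 component of the surrogate light chain, had a relative signal of 6.12 and 5.96 in NALM6 replicates 2 and 3. VPREB1, its partner, had 3.06 and 3.05. DNTT, the terminal transferase that adds bases at immunoglobulin joins, had 0.884 and 0.623. LEF1, a transcription factor of early B and T cells, had 5.70 and 4.64. All 4 starts lacked a peak in every Raji library.

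The other precursor genes divided. SOX4, a factor needed for early B cells, had 0.855, 0.874 and 0.842 in Raji and 3.94 and 3.30 in NALM6, with no overlap, a log2 difference of -2.07 (SE 0.11, adjusted p = 2.78e-06). MME, which encodes CD10, had 1.26, 1.32 and 1.42 in Raji and 2.96 and 2.87 in NALM6, a log2 difference of -1.13 (SE 0.10, adjusted p = 3.3e-05). Its region covered 2320 to 3140 bp in Raji and 5320 and 5150 bp in NALM6, its maximum signal differed by -0.55 (adjusted p = 0.0466) and its mean signal per base by -0.08 (adjusted p = 0.785). RAG1, a subunit of the recombinase, was called in all 6 libraries with overlapping values of 0.629, 0.547 and 0.553 in Raji and 0.607 and 0.707 in NALM6 (adjusted p = 0.3). Its region also holds a start of TRAF6, and that of VPREB3 one of ZNF70. RAG2, the other subunit, had a peak in NALM6 replicates 2 and 3 (0.391 and 0.209) and in 0 of 3 Raji libraries. The same held for ERG (0.377 and 0.239), an ETS factor of early progenitors. VPREB3, a chaperone-like partner of the pre-B cell receptor, was higher in Raji by 0.37 (SE 0.09, adjusted p = 0.0103), with the opposite sign when the maximum signal was used and 0.31 (adjusted p = 0.114) without NALM6 replicate 2. CD34 and FLT3, of earlier progenitors, had no peak in any of the 6 libraries. Among the 5 genes tested, 2 were higher in NALM6 and 1 in Raji, against 23.2% and 21.9% of all regions.

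The mature and germinal centre genes lay on the Raji side. Of 30 genes listed, 14 were called in Raji only and 0 in NALM6 only, against 2.89% and 1.48% of all starts. Another 6 were called in all libraries. Of the 9 tested, 7 were higher in Raji and 0 in NALM6, against 21.9% and 23.2% of all regions. Their median log2 difference was 1.06, against -0.02 over all tested genes. The counts were 4 and 0 without centring and 5 and 0 with the maximum or the mean signal. MS4A1, which encodes CD20, had relative signals of 0.966, 1.13 and 0.879 in Raji. CR2, which encodes CD21, the receptor that EBV uses to enter B cells, had 0.653, 0.617 and 0.566. Neither gene had a peak in any NALM6 library. CD80 and CD86 encode the ligands of CD28. The relative signal of CD80 was 2.26, 2.37 and 1.75 and that of CD86 0.522, 0.522 and 0.311 in Raji, again with 0 of 3 NALM6 libraries called.

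Low Raji-only starts included RGS13, a regulator of chemokine signalling in germinal centres, with 0.106, 0.274 and 0.184, and FCER2, which encodes CD23, with 0.044, 0.252 and 0.122. Higher values belonged to CD27, a memory marker and the receptor of CD70, with 1.20, 1.64 and 1.73, and to CXCR5, the follicle homing receptor, with 1.22, 1.37 and 1.22. TNFRSF13B, FCRLA, FCRL1, FCRL2 and TLR10 were also among the 14. CD40, the receptor of T cell help, had 2.27, 2.74 and 2.47 in Raji and 0.091 in 1 of 3 NALM6 libraries.

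Mature genes that carried a peak in both lines differed in signal. CD83, a surface protein of activated B cells, had 1.18, 1.30 and 1.07 in Raji and 0.168 and 0.168 in NALM6, a log2 difference of 2.81 (SE 0.14, adjusted p = 2.46e-06). S1PR2, which confines cells to the germinal centre, had 1.75, 1.87 and 2.03 against 0.347 and 0.386, a log2 difference of 2.36 (SE 0.12, adjusted p = 2.46e-06). BCL6, the repressor that governs the germinal centre, had 1.39, 1.39 and 1.40 against 0.662 and 0.679, a log2 difference of 1.06 (SE 0.10, adjusted p = 6.18e-05). In none of these did the lines overlap. ELL3 and MYBL1 were higher in Raji by 1.74 and 1.59. MEF2B and MEF2C, transcription factors of the germinal centre, did not pass the test, with log2 differences of 0.11 and 0.25 (adjusted p = 0.45 and 0.202). MEF2C passed without NALM6 replicate 2 (0.50, adjusted p = 0.0484). The region tested for MEF2B also holds starts of RFXANK and BORCS8, and another start of MEF2B, described with the extra starts, had a peak in Raji and none in NALM6.

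Of the 24 B lineage transcription factors, 15 were called in all 6 libraries, against 30.6% of all genes. Of the 17 that could be tested, 4 were higher in Raji and 9 higher in NALM6, against 21.9% and 23.2% of all regions. Without centring the counts were 1 and 6, with the maximum signal 3 and 4 and with the mean signal 3 and 3. PAX5, which fixes B cell identity, was among the regions of highest signal in both lines, with 8.85, 9.30 and 9.47 in Raji and 12.8 and 12.2 in NALM6, a log2 difference of -0.44 (SE 0.08, adjusted p = 0.00307) that took the other sign under quantile normalization and was -0.41 (adjusted p = 0.059) without NALM6 replicate 2. FOXO1 and BCL11A also had high values in both lines and did not pass the test, with log2 differences of -0.10 (adjusted p = 0.417) and 0.02 (adjusted p = 0.868). The list's median log2 difference was -0.28, and it was 0.05 with the maximum signal.

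Factors with a start called in Raji only were RUNX3, SPIB, IRF8 and ID2. RUNX3, a Runt factor of mature lymphocytes that is induced by EBV, had 4.63, 4.02 and 3.89. IRF8 and SPIB act together with PU.1 in mature B cells. Relative signals in Raji were 1.69, 1.77 and 1.63 at IRF8 and 1.17, 1.57 and 1.48 at SPIB. ID2, an inhibitor of E proteins, had 0.693, 0.857 and 0.639. POU2F2, which encodes OCT2, had 4.06, 4.91 and 4.89 in Raji and a peak in 1 of 3 NALM6 libraries (0.114). Higher in Raji among tested factors were ETS1 (1.52), SPI1 (1.14), IKZF3 (1.11) and IKZF1 (0.64, on chromosome 7). ETS1 and IKZF1 did not pass with the maximum signal, and ETS1, IKZF3 and IKZF1 did not with the mean signal. Without Raji replicate 2 the difference at IKZF3 was 0.59 (adjusted p = 0.0551), and without NALM6 replicate 3 that at IKZF1 was 0.52 (adjusted p = 0.102).

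The factors of higher signal in NALM6 were led by IRF4, which drives light chain rearrangement in precursors and plasma cell fate later. Its relative signal was 0.239, 0.413 and 0.313 in Raji and 4.98 and 4.76 in NALM6, a log2 difference of -3.96 (SE 0.20, adjusted p = 2.68e-06). The start of IRF4 had no peak in any REH library. RUNX1, which acts earlier in the lineage than RUNX3, had 0.618, 0.821 and 0.688 in Raji and 2.63 and 2.39 in NALM6, a log2 difference of -1.83 (SE 0.14, adjusted p = 1.61e-05), which was -0.28 (adjusted p = 0.357) on mean signal. So RUNX3 had a peak in Raji only while the RUNX1 region was longer in NALM6. TCF4, which encodes the E protein E2-2, was lower in Raji by 1.81 on the log2 scale, a difference that missed the test on mean signal (adjusted p = 0.113).

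MYC, the growth regulator that is translocated in Burkitt's lymphoma, had 2.69, 2.59 and 2.67 in Raji and 7.03 and 5.57 in NALM6, a log2 difference of -1.24 (SE 0.11, adjusted p = 4.14e-05). The lines did not overlap at MYC, and the translocated and intact copies cannot be told apart in these peaks. MYB, a regulator of progenitor growth, was also higher in NALM6, with a log2 difference of -0.81 (SE 0.13, adjusted p = 0.00105). EBF1, which acts before PAX5, had 3.49, 2.57 and 2.98 in Raji and 5.71 and 5.71 in NALM6, a log2 difference of -0.93 (SE 0.13, adjusted p = 0.000445), but the maximum signal at EBF1 differed by 0.08 the other way (adjusted p = 0.877).

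Of 24 genes of the B cell receptor and its signalling chain, 3 were called in Raji only and 0 in NALM6 only, against 2.89% and 1.48% of all starts. Of 21 tested, 13 were higher in Raji and 1 in NALM6, against 21.9% and 23.2% of all regions, with a median log2 difference of 0.49. The counts were 3 and 0 without centring, 6 and 0 with the maximum signal and 8 and 0 with the mean signal. PRKCB, the kinase that passes the receptor signal to NF-kB, had 2.22, 2.62 and 2.43 in Raji and 0.453 and 0.462 in NALM6, a log2 difference of 2.40 (SE 0.11, adjusted p = 1.65e-06). RASGRP3, an exchange factor for Ras, was among those called in Raji only, with 0.814, 1.19 and 0.985, as was the adaptor DAPP1, with 0.379, 0.496 and 0.332.

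CD22, an inhibitory co-receptor and the target of the CAR T cells used in the study, had 1.44, 1.94 and 1.65 in Raji and 0.294 and 0.394 in NALM6. This was a log2 difference of 2.29 (SE 0.17, adjusted p = 1.56e-05), with no overlap, which was 1.36 on maximum and 1.02 on mean signal and passed the test on both.

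The receptor's signalling chains CD79A and CD79B were higher in Raji by 1.30 (SE 0.16, adjusted p = 0.000216) and 0.49 (SE 0.09, adjusted p = 0.00248), the latter with a difference of 0.07 on mean signal. CD72, an inhibitory co-receptor, was higher in Raji by 1.41 in a region that also holds a start of SIT1, the adaptors BLNK and PIK3AP1 by 0.91 and 0.85, and the phospholipase PLCG2 by 0.90. Without NALM6 replicate 3 BLNK missed the test (0.88, adjusted p = 0.0602). PTPN6, the phosphatase SHP-1, was the 1 gene of the list higher in NALM6, with a log2 difference of -0.44 (SE 0.12, adjusted p = 0.02). It missed the test without NALM6 replicate 2 (-0.46, adjusted p = 0.106) or replicate 3 (-0.42, adjusted p = 0.127). In the bryostatin-treated libraries the difference at PTPN6 was 0.40 in the other direction (adjusted p = 0.0333).

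Among 18 B cell surface antigens that have been therapy targets, 5 were called in Raji only and 0 in NALM6 only, against 2.89% and 1.48% of all starts, and 5 in all libraries. Beside MS4A1 and TNFRSF13B those in Raji only were CD37, a tetraspanin, with 0.467, 0.931 and 0.835 in Raji, CD70, the ligand of CD27, with 2.49, 1.92 and 1.95, and ROR1, a receptor tyrosine kinase, with 0.107, 0.205 and 0.251. Of 7 tested, 3 were higher in Raji, namely CD22, CD79B and TNFRSF13C, and 1 in NALM6, against 21.9% and 23.2% of all regions. The median log2 difference of 0.13 became -0.11 without centring.

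Antigen presentation genes were counted by class. Of 16 MHC class II genes, 3 were called in Raji only and 0 in NALM6 only, against 2.89% and 1.48% of all starts. Of 13 tested, 7 were higher in Raji and 2 in NALM6, against 21.9% and 23.2% of all regions. The counts were 0 and 1 without centring, 0 and 0 with the maximum signal and 4 and 2 with the mean signal. HLA-DRB1 had 0.869, 1.10 and 0.928 in Raji and 0.385 and 0.429 in NALM6, a log2 difference of 1.24 (SE 0.14, adjusted p = 0.000176). HLA-DPA1, HLA-DQB1 and HLA-DMB were higher in Raji by 0.99, 0.94 and 1.02. With the mean signal these 3 differences were 0.86, 0.76 and 0.76 and passed the test (adjusted p = 0.0124, 0.0242 and 0.017), whereas that at HLA-DRB1 was -0.20 (adjusted p = 0.568). HLA-DMA, a peptide exchange chain whose region had 6.38, 5.43 and 5.64 in Raji and 10.2 and 9.12 in NALM6, was higher in NALM6 by a log2 difference of -0.73 (adjusted p = 0.000534). This region also holds a start of BRD2, so it need not belong to HLA-DMA. CIITA, the master activator of class II genes, did not pass, with a log2 difference of -0.14 (adjusted p = 0.439). HLA-DQA1, HLA-DRB5 and HLA-DOB were the starts called in Raji only. HLA genes are polymorphic and resemble each other, HLA-DRB5 is missing from many haplotypes, and the part of alignment in their values was not tested.

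Of 19 genes of class I and antigen processing, 18 were tested, with 7 higher in NALM6 and 2 in Raji, against 23.2% and 21.9% of all regions. The counts were 1 and 0 without centring, 3 and 1 with the maximum signal and 4 and 1 with the mean signal. HLA-B had 0.997, 1.35 and 1.31 in Raji and 2.19 and 2.32 in NALM6, a log2 difference of -0.90 (SE 0.14, adjusted p = 0.000942). HLA-C and B2M had log2 differences of -0.76 and -0.54, and NLRC5, the activator of class I genes, -0.67. NLRC5 missed the test on mean signal (-0.14, adjusted p = 0.774), without centring (-0.91, adjusted p = 0.16) and with NALM6 replicate 1 added (-0.44, adjusted p = 0.147). The region of B2M also holds a start of PATL2. HLA-C and B2M missed the test when either NALM6 library was left out, with differences of -0.82 and -0.54 without replicate 2 and -0.70 and -0.55 without replicate 3. TAP2 and PDIA3 were the 2 higher in Raji, by 0.46 and 0.45. TAP2 missed the test without NALM6 replicate 2 (0.48, adjusted p = 0.0772) or replicate 3 (0.44, adjusted p = 0.0854), and PDIA3 without replicate 2 (0.44, adjusted p = 0.0524), and on mean signal PDIA3 took the other sign.

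Of 28 genes listed with the ligands of NK and T cell receptors, 5 were called in Raji only and 0 in NALM6 only. The shares of all starts were 2.89% and 1.48%. The 5 were the SLAM family genes SLAMF1, CD84, SLAMF6 and CD48, and TNFRSF10A, which encodes the receptor TRAILR1 and not a ligand. ICAM1, the adhesion ligand of LFA-1, had 1.43, 1.85 and 1.61 in Raji and 0.162 and 0.211 in NALM6, a log2 difference of 3.13 (SE 0.17, adjusted p = 3.05e-06), with 3.20 on maximum and 2.31 on mean signal. NCR3LG1, which encodes B7-H6, the ligand of NKp30, had 1.15, 0.755 and 0.798 in Raji and 0.235 and 0.174 in NALM6 (log2 difference 2.13, adjusted p = 8.63e-05). NCR3LG1 missed the test on maximum signal (1.13, adjusted p = 0.119). A peak lay within 1 kb of its start in 1 of 3 NALM6 libraries. ULBP2, a ligand of NKG2D, had 0.066, 0.173 and 0.139 against 0.310 and 0.398, a log2 difference of -1.59 (adjusted p = 0.0094) that missed the test on maximum signal. ULBP2 also missed it without NALM6 replicate 2 (-1.78, adjusted p = 0.056) or replicate 3 (-1.41, adjusted p = 0.107). NECTIN1, a ligand of CD96, was higher in Raji by 0.75 (adjusted p = 0.000213). NECTIN1 missed the test on maximum signal (0.80, adjusted p = 0.0512) and without centring (0.50, adjusted p = 0.493). Of the 13 tested, 3 were higher in Raji and 6 in NALM6, against 21.9% and 23.2% of all regions. The counts were 2 and 2 without centring, 1 and 1 with the maximum signal and 3 and 4 with the mean signal. Among 25 adhesion and homing genes, 4 were called in Raji only and 1 in NALM6 only, against 2.89% and 1.48% of all starts. Of 9 tested, 4 were higher in Raji and 3 in NALM6, against 21.9% and 23.2% of all regions. The counts were 3 and 1 without centring, with the maximum signal or with the mean signal. The chains of LFA-1 itself were both called in Raji only, with 2.44, 2.27 and 2.09 at ITGB2 and 0.085, 0.146 and 0.141 at ITGAL. CCR7, the lymph node homing receptor, had 1.38, 2.05 and 1.48 in Raji, with no peak in NALM6. ITGA6, an integrin chain, was higher in Raji by 1.79 (adjusted p = 2.79e-05). CD9, a tetraspanin of precursor B cells, was called in NALM6 only, with 2.24 and 2.22, and CD24 had 4.79 and 4.21 in NALM6 against 0.040 in 1 of 3 Raji libraries.

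Among 30 genes that respond to NF-kB or EBV, 10 were called in Raji only and 1, STAT5A, in NALM6 only, against 2.89% and 1.48% of all starts. LTA, LTB and TNF lie together and share 1 region, which had 3.99, 4.66 and 4.57 in Raji and no peak in NALM6. BIRC3, an inhibitor of apoptosis, had 2.55, 2.41 and 2.27, EBI3, a cytokine subunit named for its induction by EBV, 0.687, 1.26 and 0.814, and BCL2A1, a survival protein, 0.579, 1.08 and 0.659. CCL22, a chemokine, had lower values of 0.101, 0.364 and 0.150. The NF-kB subunits themselves mostly did not pass. REL, RELA and RELB had log2 differences of -0.05, -0.16 and 0.26, of which RELB passed without Raji replicate 1 (0.34, adjusted p = 0.0227), whereas NFKB2 was higher in Raji by 1.40 (SE 0.10, adjusted p = 1.26e-05) and the inhibitor NFKBIE by 1.06 (adjusted p = 5.17e-05). Of 15 tested, 5 were higher in Raji and 1, IRF4, in NALM6, against 21.9% and 23.2% of all regions. The counts were 2 and 1 with the maximum signal or without centring and 2 and 2 with the mean signal. The median log2 difference of 0.20 was below 0 with the maximum signal, the mean signal or no centring.

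Of 18 costimulation and checkpoint genes, 4 were called in Raji only and 0 in NALM6 only, against 2.89% and 1.48% of all starts. Of 3 tested, TNFRSF14, the ligand of BTLA, was higher in Raji by 1.22 (adjusted p = 0.00386), or by 1.00 (adjusted p = 0.0624) without NALM6 replicate 2. The cytokine receptors IL10RA and IL21R were called in Raji only, with 0.688, 0.876 and 0.748 and with 1.64, 1.78 and 1.47. Of 11 receptors tested among 24, 6 were higher in Raji and 2 in NALM6, against 21.9% and 23.2% of all regions. IL4R was higher by 1.14, IL2RG by 1.26, and the interferon receptor chains IFNGR1, IFNGR2 and IFNAR2 by 1.06, 1.11 and 1.04. On mean signal IL4R, IFNGR1 and IL2RG missed the test (0.14, 0.29 and 0.68, adjusted p = 0.649, 0.356 and 0.074). On maximum signal IL4R and IFNGR1 missed it (adjusted p = 0.323 and 0.151). With NALM6 replicate 1 added IL4R and IFNGR2 missed it (0.96 and 0.76, adjusted p = 0.0512 and 0.168). TNFRSF1B was higher in NALM6 with a log2 difference of -0.87, which missed the test without NALM6 replicate 2 (-0.93, adjusted p = 0.0924) or replicate 3 (-0.81, adjusted p = 0.129). Without centring, 0 of the 11 receptors were called. With the maximum signal 4 were higher in Raji and 0 in NALM6, and with the mean signal 3 and 1.

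Survival genes differed by member. BCL2L1, which encodes BCL-XL and lies on chromosome 20, had 3.59, 5.31 and 4.12 in Raji and 0.752 and 0.760 in NALM6, a 5.66-fold difference (SE 0.15 on the log2 scale, adjusted p = 5.79e-06). BCL2 had 1.55, 1.86 and 1.60 in Raji and 3.43 and 3.15 in NALM6, a log2 difference of -0.98 (SE 0.11, adjusted p = 0.000141). BCL2 missed the test on maximum signal (-0.50, adjusted p = 0.101). MCL1 did not pass, with a log2 difference of -0.22 (adjusted p = 0.206), but did on mean signal, with -0.93 (adjusted p = 0.00392). So of the anti-apoptotic genes, BCL2L1 and BCL2A1 were higher or called in Raji only and BCL2 was higher in NALM6. BIK, a killer of the BH3-only group, was called in Raji only, with 1.13, 1.25 and 1.24, and BBC3 was higher in Raji by 1.16. Of the 24 genes of apoptosis and cell cycle, 17 were tested, with 5 higher in Raji and 3 in NALM6, which is near the 21.9% and 23.2% of all regions. The counts were 1 and 1 without centring, 3 and 0 with the maximum signal and 3 and 2 with the mean signal. In the whole list 5 genes were called in Raji only and 0 in NALM6 only, against 2.89% and 1.48% of all starts.

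**Figure D2:**
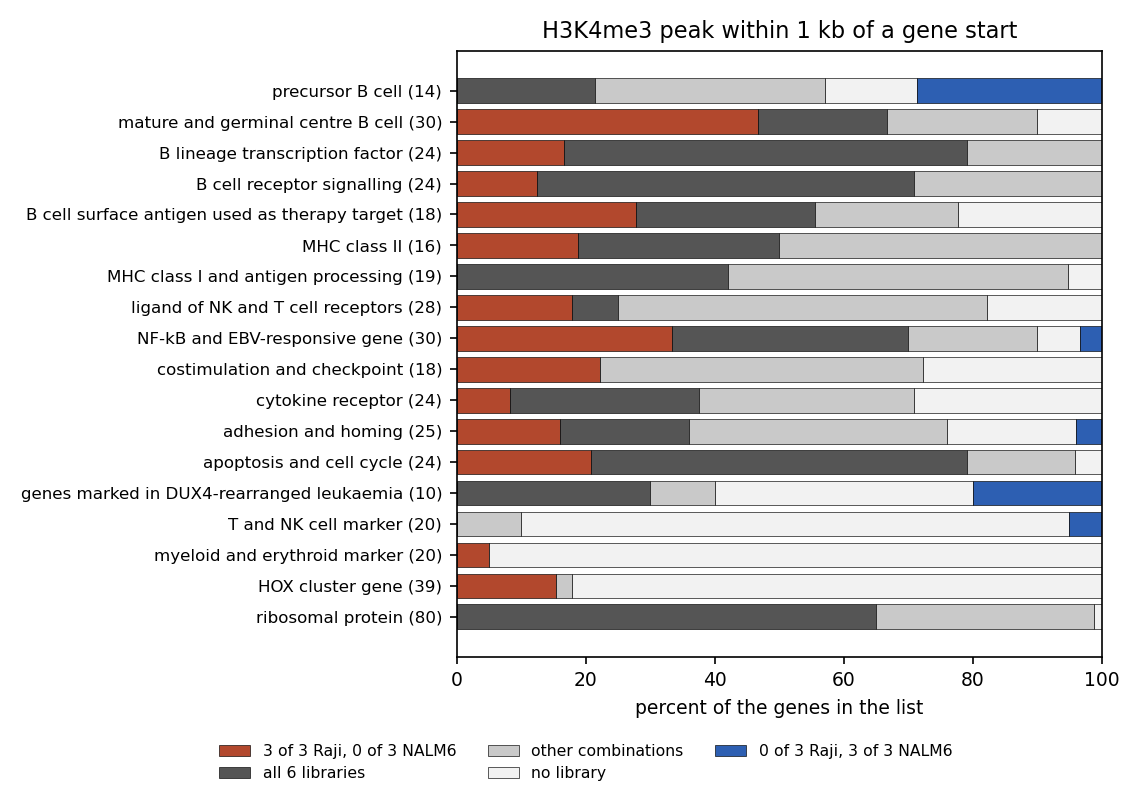
For each gene list the bars give the percent of genes with an H3K4me3 peak within 1 kb of a start in Raji only (3 of 3 against 0 of 3 libraries), in NALM6 only, in all 6 libraries and otherwise, with the number of genes in brackets. The mature and germinal centre list has 14 of 30 genes in Raji only, the precursor list 4 of 14 in NALM6 only, and the T and NK cell list 17 of 20 in neither.

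Lists for other cell types served as a check of the labels. Of 20 T and NK cell markers, 17 had no peak in any of the 6 libraries, against 41.8% of all genes, and GATA3 was called in NALM6 only. Of 20 myeloid and erythroid markers, 19 had no peak in any library, and EPOR was called in Raji only. Of 39 HOX genes, 32 had no peak and 6 were called in Raji only, against 41.8% and 2.89% of all genes. Among the 6 were HOXA6, HOXB3, HOXB4, HOXB7 and HOXC4. The starts of AGAP1 and PTPRM, of 10 genes that mark leukemia with a DUX4 rearrangement, were called in NALM6 only, with 4.02 and 3.76 and with 2.58 and 2.55. CHST2 and CCNJ of the same list had log2 differences of -2.40 (SE 0.16, adjusted p = 8.82e-06) and -2.35. IKZF1, the remaining gene of this list that was tested, was higher in Raji by 0.64 (adjusted p = 0.00815). In REH, PTPRM, CHST2 and CCNJ had a peak in 3 of 3 libraries and AGAP1 in 2. Of the same 10, 4 had no peak in either line. Of 80 ribosomal protein genes 78 were tested, with 14 higher in Raji and 12 in NALM6, smaller shares than the 21.9% and 23.2% of all regions, and a median log2 difference of -0.04.

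The 10 largest differences toward Raji, among tested start regions whose lines did not overlap, ran from 3.28 to 4.77 on the log2 scale. CTSZ, a lysosomal protease on chromosome 20, led with 5.16, 5.33 and 5.88 in Raji and 0.156 and 0.256 in NALM6, a 27.2-fold difference (SE 0.19 on the log2 scale, adjusted p = 1.21e-06). TOX, a nuclear factor of lymphocytes, followed with 4.80, 4.47 and 4.39 against 0.187 and 0.198, a 23.7-fold difference (SE 0.10 on the log2 scale, adjusted p = 1.29e-07). PIM1, a kinase and frequent target of aberrant hypermutation in lymphoma, had 3.09, 2.98 and 3.20 against 0.170 and 0.236 (15.4-fold). DUSP5, a phosphatase of ERK, was 15.6-fold higher, PTGER4, a prostaglandin receptor, 14.2-fold, and NFATC1, the calcium-regulated factor, 10.9-fold. IZUMO4 with MOB3A, AGAP3 on chromosome 7, ADAM19 and GSE1 made up the 10.

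Toward NALM6 the 10 largest differences were larger, from -5.79 to -4.14. Only regions called in every library were tested, so these sizes depend on the lowest signal still called in the other line. The part of that limit in the contrast between directions was not tested. PKN3, a kinase of the protein kinase C family, had 0.045, 0.096 and 0.104 in Raji and 4.31 and 4.22 in NALM6, a log2 difference of -5.79 (SE 0.32, adjusted p = 4.01e-06). BAHCC1, a chromatin reader, had 0.102, 0.225 and 0.245 against 8.67 and 6.91, a log2 difference of -5.44 (SE 0.33, adjusted p = 5.89e-06). MAML3, a Notch coactivator, had -4.90, and TGIF1, a repressor of TGF-beta signalling, -4.33. FADS1, a fatty acid desaturase, had 0.177, 0.252 and 0.274 against 4.07 and 4.08, a log2 difference of -4.14. LENG9, VWCE, RAB43, RHPN1 and ZNF496 were the other 5. All 10 of these starts carried a peak in 3 of 3 libraries of the REH line, whereas 4 of the 10 toward Raji did.

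By rank of signal among genes called in Raji only, ECE1, SEMA7A, the LTA, LTB and TNF region, RUNX3 and FKBP4 stood highest with an empty region in NALM6. ECE1, the endothelin-converting enzyme, had 4.21, 4.65 and 4.73, and SEMA7A, a semaphorin, 4.37, 4.67 and 4.35. ODF3B, ENSG00000271698, ZBTB32, ADHFE1 and ABCA7 also ranked in the first 10, but their merged regions held signal in NALM6 away from the start. At ZBTB32, for example, the values were 3.13, 4.10 and 3.88 in Raji and 3.61 and 3.71 in NALM6. Among genes called in NALM6 only, BAHCC1, IGLL1, SOCS2, GRIN1 with LRRC26, LEF1, STC2, NRIP1, ZNF516 and AEBP1 were among the 10 that ranked highest. SOCS2, an inhibitor of cytokine signalling, had 6.38 and 5.70. Of these 10, STC2 was the exception that had no peak in REH.

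Libraries of REH, which lay outside the comparison, were read at the same starts. Of the 297 NALM6-only genes, 205 (69.0%) had a peak in 3 of 3 REH libraries and 32 in none. Of the 578 Raji-only genes, 103 (17.8%) had a peak in 3 of 3 and 298 in none. The NALM6-only genes had to be called in NALM6 replicate 1 as well, which held 6100 peaks. With NALM6 replicates 2 and 3 alone 617 genes were called in NALM6 only, and their share in REH was not counted. VPREB1 was among the NALM6-only genes with no REH peak, while IGLL1, DNTT and LEF1 were called in all REH libraries. MS4A1, CR2, CD80, CD86 and CXCR5 had no peak in REH, and CD70 had one in all 3 libraries. Of the genes called in all 6 libraries of Raji and NALM6, 94.6% were called in 3 of 3 REH libraries.

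The same contrast was made in bryostatin-treated libraries, which the untreated comparison did not use. Of 4067 regions tested, 1825 were called (44.9%), 763 higher in Raji and 1062 higher in NALM6, and without centring 667 and 467. The number tested depended on NALM6 replicate 3. Without it 8367 regions were tested and 2520 called, 1351 higher in Raji and 1169 in NALM6. Of the 1820 regions called in untreated cells and tested in both, 1782 had the same sign after treatment and 1366 were called again with it. Of the 1147 regions with a called untreated difference over 1, 340 were tested in both. All 340 kept their sign and 337 were called with it. Of the regions not called in untreated cells, 74.0% had the same sign. IRF4 had a treated log2 difference of -4.11 (adjusted p = 1.12e-05), SOX4 one of -1.85 (adjusted p = 6.27e-07) and MYBL1 one of 1.77 (adjusted p = 1.3e-06). Of the Raji-only genes 426 (73.7%) had the same presence in the treated libraries, and of the NALM6-only genes 153 (51.5%). Same presence needs a peak in 3 of 3 treated libraries of the line and 0 of 3 of the other. More treated libraries of their own line than of the other had a peak at 577 (99.8%) of the Raji-only genes. This held for 297 (100%) of the NALM6-only genes.

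H3K4me2, a mark of promoters and enhancers, was measured in other libraries of the same lines. At the 578 Raji-only starts an H3K4me2 peak was found in 96.7%, 73.4% and 93.6% of genes in the Raji libraries and in 7.96%, 11.9% and 15.6% in the NALM6 libraries. At the 297 NALM6-only starts the shares were 13.5%, 4.04% and 9.43% in Raji and 83.8%, 90.6% and 94.6% in NALM6. The lines did not overlap in either case. The differences of 76.1 and -80.7 percentage points each had p = 0.1 in the exact permutation test, which is as low as 3 libraries against 3 can go.

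H3K27me3, the mark of Polycomb repression, varied more between replicates than between lines. At Raji-only starts a peak was found in 1.73%, 65.9% and 32.0% of genes in Raji and in 7.44%, 37.5% and 26.3% in NALM6 (exact permutation test, p = 0.8). At NALM6-only starts the shares were 4.38%, 35.0% and 63.0% in Raji and 4.38%, 18.9% and 13.5% in NALM6 (exact permutation test, p = 0.4). The library labelled Raji H3K27me3 replicate 2 went against its label. It had a peak at 97.6% of the starts with H3K4me3 in all 6 libraries, against 0.391% to 9.03% in the other 5 libraries of that mark. Without it the difference at Raji-only starts turned from 9.46 to -6.89 percentage points, and that at NALM6-only starts went from 21.9 to 21.4. The number of H3K27me3 peaks ran from 819 to 73265 per library.

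**Figure D3:**
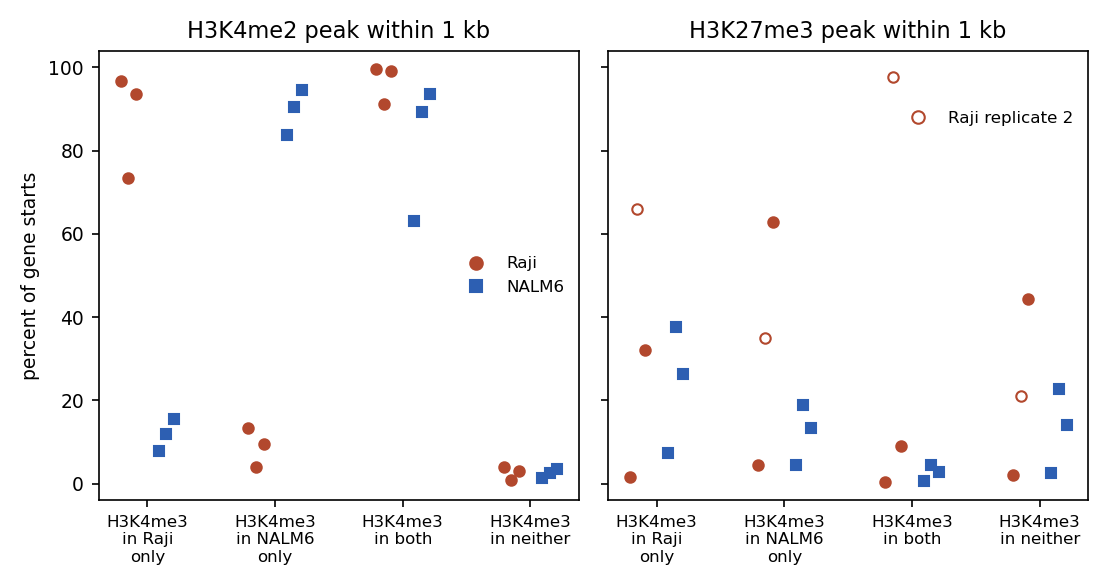
Percent of gene starts with an H3K4me2 peak (left) or H3K27me3 peak (right) within 1 kb, for genes grouped by their H3K4me3 peaks. Each point is an untreated library, circles for Raji and squares for NALM6, and the open circle is Raji H3K27me3 replicate 2. H3K4me2 separates the lines at the 578 Raji-only and 297 NALM6-only starts, and the H3K27me3 points of the lines overlap.

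Some genes had a start in a region called in both lines and another start in a region called in 1 line. In Raji there were 61 such genes, 39 with the extra start downstream of the shared one and 22 upstream. At MEF2B the extra start region chr19:19165031-19171070, which lies 19120 bp from the shared one, had 1.68, 1.79 and 1.70 in Raji and no peak in NALM6. MED26, PSMG2, TMBIM6, ST6GAL1 and LSR were next by signal. ST6GAL1, which makes the sialic acid ligand of CD22, had an extra region at chr3:187020731-187027050 with 0.972, 1.73 and 1.34. In NALM6 there were 24 such genes, 16 downstream and 8 upstream, and with replicate 1 left out 100, against 98 in Raji. The highest in NALM6 were ANAPC2, FADS2, FADS1, DECR2, BAHCC1 and C7orf50. FADS2 and FADS1 share 1 extra region, which had 3.69 and 3.74. At BAHCC1 no Raji peak of the shared region lay within 1 kb of a start, so the gene is also among those called in NALM6 only. The region at ANAPC2 (5.53 and 6.10) also holds the starts of GRIN1 and LRRC26, so it need not belong to ANAPC2.

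In 16 stretches of the genome at least 3 neighbouring start regions were called in Raji only, and there was no such stretch for NALM6. The rule is stricter for NALM6, whose replicate 1 must also be called. It left 328 start regions in NALM6 only, against 657 in Raji only. With NALM6 replicates 2 and 3 alone there were 687, and stretches were not counted for that setting. On chromosome 1, chr1:160521951-160713170 held SLAMF6, CD84, SLAMF1 and CD48, which encode SLAM family receptors. Another held FCGR2C, FCGR2B and FCRLA, of which FCGR2B and FCGR2C are near copies whose reads cannot be told apart with certainty. The longest by regions was chr9:20620381-22009840, with 6 start regions at MLLT3, FOCAD, KLHL9, MTAP, CDKN2A and CDKN2B. CDKN2A, which encodes the inhibitors INK4A and ARF, had 2.20, 1.89 and 1.84 in Raji, MTAP 1.02, 0.868 and 0.857, and CDKN2B 0.210, 0.174 and 0.164. Across that stretch the NALM6 libraries also had 0 peaks of H3K4me2 and 0 of H3K27me3 in every library, while the Raji libraries had 7, 4 and 6 of H3K4me2. Copy number was not measured here, so missing DNA and unmarked DNA cannot be told apart.

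Whole chromosomes differed too. The median log2 difference was 0.37 on chromosome 7 and 0.42 on chromosome 20, against -0.16 to 0.06 on the other 21 chromosomes. On chromosome 7 49.8% of tested regions were higher in Raji, and on chromosome 20 56.4%, against 21.9% of all regions. In bryostatin-treated libraries the medians were 0.32 and 0.36, against -0.35 to 0.07 elsewhere, and in untreated H3K4me2 libraries 0.35 and 0.44, against -0.23 to 0.07. Copies of a chromosome and signal per copy cannot be told apart, which touches IKZF1, AGAP3 and HOXA6 on chromosome 7 and BCL2L1, CTSZ and CD40 on chromosome 20. The part of copy number in the differences at CTSZ (27.2-fold), BCL2L1 (5.66-fold) and IKZF1 (0.64 on the log2 scale) was not tested.

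**Figure D4:**
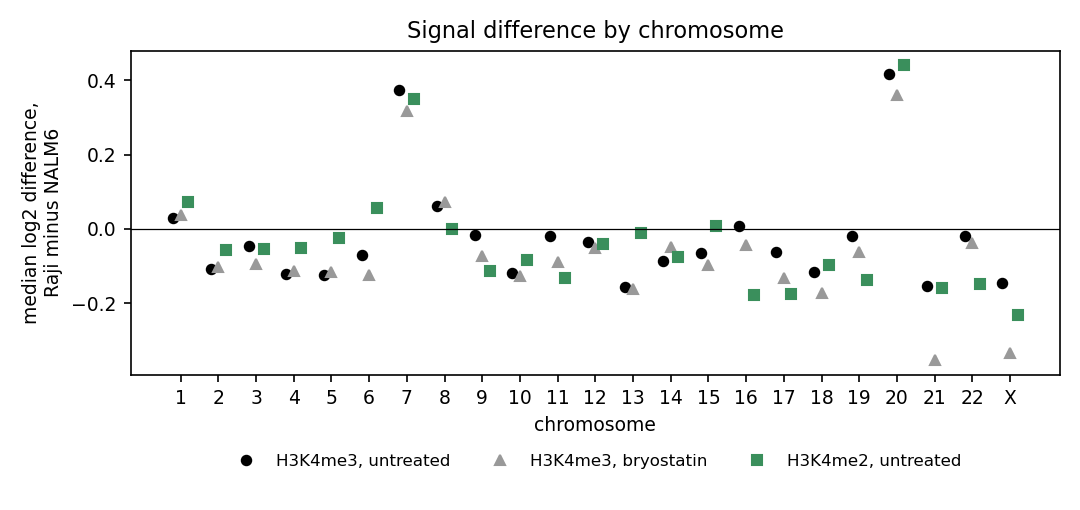
Median log2 difference in signal, Raji minus NALM6, by chromosome, for untreated H3K4me3, bryostatin-treated H3K4me3 and untreated H3K4me2 libraries. Chromosomes 7 and 20 lie between 0.32 and 0.44 in all 3 sets, and the other chromosomes between -0.35 and 0.07.

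The regions of highest signal were shared in part. Of the 100 start regions with the highest signal in each line, 51 were common to both, including PAX5, BCL11A, FOXO1, CDK6 and HLA-DMA. POU2F2 was among the highest in Raji alone, and EBF1, IGLL1, LEF1, IRF4, MYC and S1PR4 among those in NALM6 alone. The region of highest signal in NALM6 lay away from protein-coding starts, at chr14:105852041-105865460, over IGHM and the joining segments of the immunoglobulin heavy chain locus, and was picked out after its values were seen. It had 9.34, 6.20 and 6.90 in Raji and 37.6 and 38.7 in NALM6, a log2 difference of -2.37 (SE 0.16, adjusted p = 8.8e-06).

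Base composition was described for each class of promoters, with no test. NALM6-only genes had to be called in NALM6 replicate 1 as well, and composition was not computed without that library. A RefSeq promoter window of 250 bases before to 50 after the start was matched for 15315 of 20007 genes. The median GC content was 67.3% for genes called in all 6 libraries, 63.7% for Raji-only genes, 71.7% for NALM6-only genes and 57.0% for genes called in none. The median ratio of observed to expected CpG was 0.881, 0.754, 0.822 and 0.393 in the same order. In these windows TATAAA was found in 4.07% of promoters called in all libraries, 8.30% of Raji-only, 5.75% of NALM6-only and 16.6% of uncalled ones, against 9.64% of all.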

How the data were processed

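Cut&Tag peak files of the 3 untreated Raji and 3 untreated NALM6 H3K4me3 libraries were analysed, with the treated, REH, H3K4me2 and H3K27me3 libraries for comparison. The authors trimmed paired reads (Trim Galore), aligned them to hg38 (Bowtie2), computed RPKM coverage and called peaks in each library (SEACR, stringent). Versions are not given in the sources used here. The deposited signal of a peak is its coverage summed over its bases, with the maximum coverage beside it, and the unit of NALM6 replicate 1 is not stated. Mapped reads were computed from the step between RPKM values in 10 bp bins. The sequenced reads were not used here, so no count model was fitted.

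Peaks on chromosomes 1 to 22, X and Y were merged where they overlapped by at least 1 bp. The log2 of the summed signal, centred on the median of regions called in all 5 libraries, was fitted with limma 3.58.1 (R 4.3.3), with eBayes trend and Benjamini-Hochberg adjustment at 0.05. Only regions called in every library enter the fit, so starts called in 1 line were counted without a test. Genes came from GENCODE 44 with windows of 1 kb. Percentages were compared by exact permutation tests over libraries (scipy 1.17.1). Simulated data took the means and residual spread of the untreated comparison (8556 regions), with 50 regions changed at each size tried. Of the 50 changes of 1 on the log2 scale the fit recovered 74%, with 4 false calls among 144 over all sizes. Far fewer regions were changed than the 3861 called, and the noise was independent between regions. The rates therefore need not hold for the real contrast.

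The comparison and the gene lists were chosen with earlier results of these data known. Genes were named from the lists, as the 10 largest differences in each direction at starts whose lines did not overlap, as the 10 genes called in 1 line with the highest signal, and, for alternative starts, as up to 6 genes by signal. Further list members are given where their values are shown. Genes of chromosome Y were left out, and a few other members of the lists are not reported here. Alternatives tried were total signal replaced by its maximum or by its mean per base, values left uncentred or quantile normalized, start regions only, the upper 0.5 of regions, merging within 1 kb, no trend, NALM6 replicate 1 added or left out, equal numbers of peaks, windows of 500 bp and 2.5 kb, a replicate block and leaving out each library.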

Additional observations from a re-analysis of the deposited data

Results flagged for a closer look

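Peaks on the Epstein-Barr virus sequence were outside every comparison above. The untreated Raji H3K4me3 libraries held 12, 7 and 3 of them in replicates 1, 2 and 3, and the NALM6 libraries held 0. The virus is carried by Raji. These peaks were singled out because the signal was present in all 3 Raji libraries and in none of the 3 NALM6 libraries.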

How the results depend on the processing

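The number of regions called between the untreated lines, 3861, was 1356 with the maximum signal, 1678 with the mean signal, 878 without centring, 2020 of 4278 in the upper 0.5 of regions and 1040 of 5148 with NALM6 replicate 1 added. Leaving out a library gave 2284 to 5216, with 2284 without NALM6 replicate 2 and 2381 without NALM6 replicate 3. In bryostatin-treated libraries the 1825 calls became 1178, 695, 1134, 1026 and 735 under the same 5 settings and 1408 to 2520 when a library was left out. The 2520 calls were among 8367 regions tested without NALM6 replicate 3. Quantile normalization, merging within 1 kb, start regions only and no trend kept both counts within 1.5 times.

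Genes called in NALM6 only numbered 541 with equal numbers of peaks and 617 without NALM6 replicate 1, and 297 to 335 when a library was left out in turn. Those in Raji only numbered 581 to 869, with 869 without NALM6 replicate 3. Genes with an extra start in Raji numbered 25 with equal peaks, 98 without NALM6 replicate 1 and 61 to 85 when a library was left out, and those in NALM6 100 without replicate 1 and 24 to 27. The difference in percent of gene starts was 0.46 without NALM6 replicate 1 and 1.44 with equal peaks. With one of the other 5 libraries left out it ran from 6.62 to 11.2. The H3K4me2 differences ran from 71.7 to 83.3 and from -83.6 to -78.2, and the H3K27me3 differences from -6.89 to 25.2 and from 7.46 to 36.8, the value of -6.89 being that without Raji replicate 2.

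Of 90 genes with fitted values, 38 kept their direction and side of the threshold in every alternative that gave a value. Calls were lost most often without centring (32 genes), with the maximum signal (24) and with the mean signal (21). Signs turned for VPREB3 (-0.28), EBF1 (0.081) and FOXO1 (0.33) with the maximum signal, and for RAG1 (0.19), HLA-DRB1 (-0.20), PDIA3 (-0.46), MEF2B (-0.057) and RELB (-0.033) with the mean signal. PAX5 turned with quantile normalization (0.37), MEF2B (-0.14) and BCL11A (-0.22) without centring, and CIITA (0.19) and BCL11A (-0.033) with NALM6 replicate 1 added. With a library left out, MEF2B ranged from -0.036 to 0.25, BCL11A from -0.074 to 0.11 and REL from -0.14 to 0.025 (0.0059 without NALM6 replicate 2). The causes were not tested.

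The labels give both lines the replicate numbers 2 and 3, but the lines are separate cultures and same-numbered libraries correlated at 0.055 and 0.16 in their deviations, and only 2 numbers are shared, so no pairing was assumed. With the replicate number as a block, 5706 regions were called in untreated and 2070 in treated libraries, and BCL11A turned to -0.020. RAG1 (-0.25, adjusted p = 0.0359), MEF2C (0.22, adjusted p = 0.0157) and RELB (0.34, adjusted p = 0.00488) passed the test with the block and not without it. Replicate number 1 enters the fit for Raji alone, so the block also takes Raji replicate 1 out of the line contrast. With that library left out and no block, RAG1 was -0.25, RELB 0.34 and BCL11A -0.019, with 5216 regions called. Effects of pairing and of that library cannot be told apart here. Calls rest on 2 NALM6 libraries, and weak peaks limit what presence can show.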
